A study of Ovis aries with 19 samples.

Results

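Imprinted genes with roles in growth were looked up by name among 28524 genes measured in liver and muscle of female sheep, and 8 of 10 such names had a row: PEG3, PLAGL1, CDKN1C, DLK1, NNAT, MEST, SGCE and PEG10. GNAS and MEG3 are not analysed here. The rule is by gene name. The study compared 5 control sheep with 5 treated sheep, which its title describes as exposed to an excess of testosterone before birth. All 10 animals were female, and their breed, age, the testosterone dose and the days of exposure are not given in the sources used here. Muscle was sequenced from all 10 animals and liver from 4 controls and 5 treated sheep, so that 9 of 10 sheep gave both tissues. Control sheep 98, 131, 179 and 201 and treated sheep 48, 63, 185, 233 and 255 gave both, and control sheep 132 entered with its muscle only.

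An imprinted gene is read mainly from the copy inherited from 1 parent, the other copy being silenced by marks laid down in the egg or the sperm. Paternally expressed genes of this kind often promote growth of the fetus and placenta, and maternally expressed ones often restrain it, and many are turned down after birth. Sheep are a known case, since the callipyge mutation in the DLK1 to MEG3 region enlarges the muscles of the hindquarters when inherited from the sire. The counts analysed here do not separate the parental copies, so they show the total transcript of a gene and not its imprint. Both tissues are mixtures of cells, and in them fewer cells of a type and less RNA per cell cannot be told apart.

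Liver libraries held 10236610 to 16046301 reads and muscle libraries 8455563 to 14331578. The defining transcripts of both tissues matched the labels, with ALB, the albumin gene, at a normalized read count of at least 112956 in the livers and no more than 16.2 in muscle, and ACTA1, the skeletal muscle actin gene, at least 154279 in muscle and at most 9.12 in liver. The muscle library of treated sheep 48 stood apart, with 27.9% of its reads in its 50 most abundant genes against 32.7% to 38.6% in the others. A single direction of variation held 41% of the variance of the liver libraries and 19.5% of that of the muscle libraries. The values below are normalized read counts, scaled between libraries within a tissue, and each sheep is 1 replicate. Counts are not divided by gene length, so levels are compared between sheep and not between genes.

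The first comparison asked whether the genes differed in liver between treated and control sheep. DLK1 had the widest shift, with a mean in treated livers at 0.364 times that in control livers, and NNAT had a treated mean 2.09 times the control mean. The other 6 genes lay between 0.792 times for PEG3 and 1.27 times for MEST. Differences on the log2(value + 1) scale were above 0 for 5 of 8 genes and below 0 for 3, with a median of 0.24 against 0.0032 for all 13640 genes tested. With limma, 0 of 8 genes passed an adjusted p of 0.05, and 0.00733% of all liver genes did. At an unadjusted p under 0.05, 1 of 8 was lower in treated livers, DLK1, against 2.17% of all genes lower and 1.82% higher by that measure, 3.99% in all. The recovered reads called 0 of the 8 with edgeR and with DESeq2. No gene of the 8 had separate ranges in treated and control livers, and 1.54% of all genes did, 0.858% with the treated group higher and 0.682% with it lower.

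**Figure D1:**
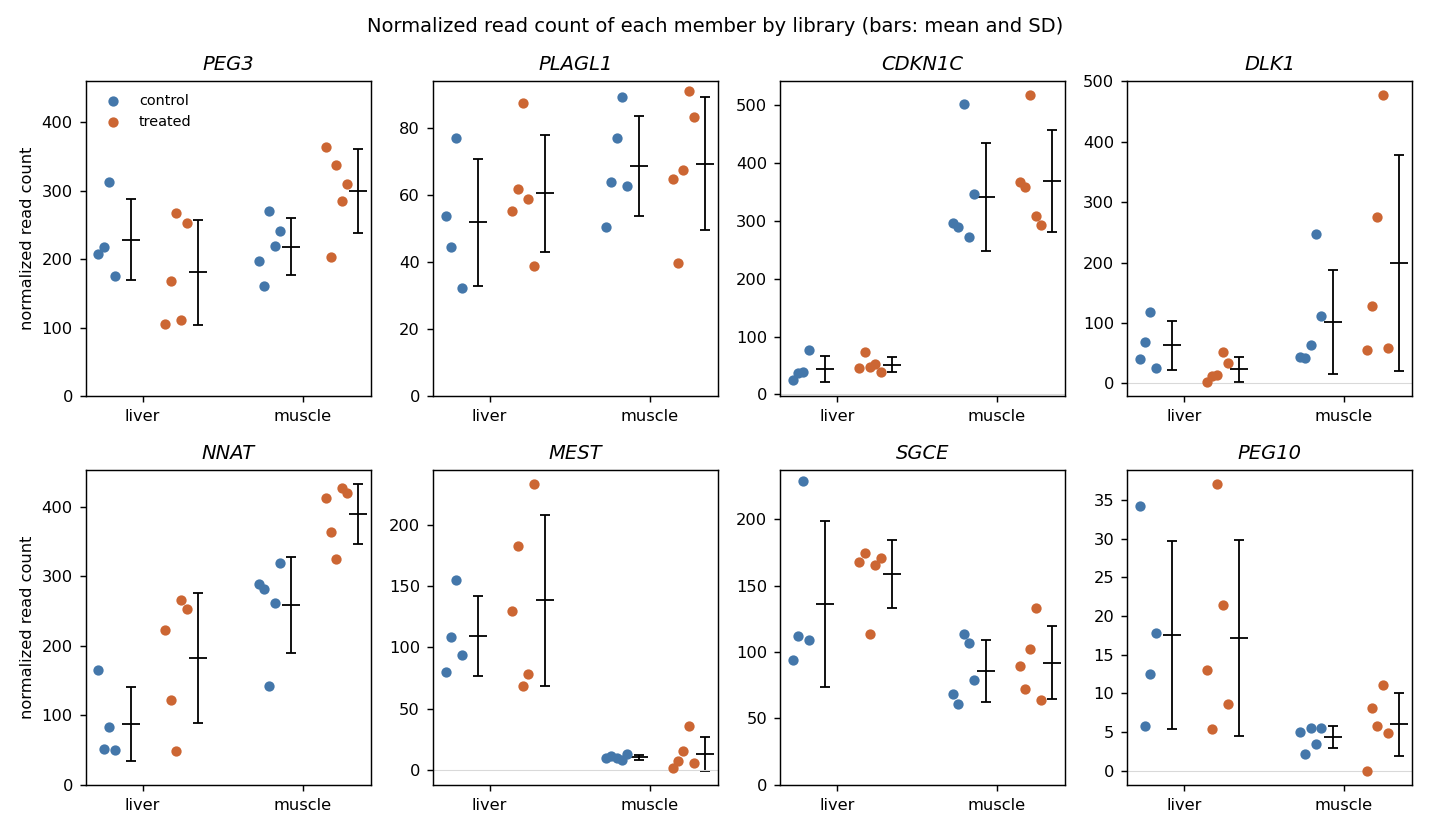
Normalized read count (vertical axis, linear, a separate scale per gene) of the 8 imprinted genes in each liver and muscle library, with control sheep in blue and treated sheep in orange; the bars give the mean and SD of a group. In muscle the 5 treated sheep lie above all 5 controls for NNAT, and in liver 3 treated sheep lie below every control for DLK1.

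PEG3 encodes a zinc finger protein of progenitor cells, expressed from the paternal copy. In control livers its normalized read count was 208 in sheep 98, 218 in sheep 131, 313 in sheep 179 and 176 in sheep 201. In treated livers it was 105 in sheep 48, 168 in sheep 63, 267 in sheep 185, 111 in sheep 233 and 253 in sheep 255. The treated livers of sheep 48, 63 and 233, lay below the lowest control, while those of sheep 185 and 255 lay within the control range. The means were 228 ± 58.9 (SD, n = 4) and 181 ± 76.5 (SD, n = 5). The log2 difference was -0.41 with a 95% interval from -1.13 to 0.31 (limma adjusted p = 0.999).

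PLAGL1, a paternally expressed zinc finger transcription factor that acts on other imprinted genes, ranged from 32.3 to 77.1 in control livers and from 39.0 to 87.6 in treated livers. Its log2 difference was 0.24 with an interval from -0.48 to 0.96. In the NCBI table of sheep genes PLAGL1 overlaps ZC2HC1B, which ran from 5.82 to 11.1 in control livers and from 14.99 to 22.8 in treated livers. These ranges do not overlap, as for 0.858% of all liver genes with the treated group higher (ZC2HC1B log2 difference 0.89, limma adjusted p = 0.999). The strand setting of the counting is not given in the sources used here, so reads from stretches that 2 overlapping genes share cannot be told apart. CDKN1C, a maternally expressed inhibitor of cyclin-dependent kinases that holds back cell division, ranged from 25.2 to 76.8 in control livers and from 39.0 to 72.8 in treated livers. The treated range lay inside the control range. The log2 difference of CDKN1C was 0.30 with an interval from -0.46 to 1.06, and both genes had a limma adjusted p of 0.999.

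DLK1, also called preadipocyte factor, is a paternally expressed membrane protein that keeps precursor cells from maturing and is abundant in fetal liver. In control livers its normalized read count was 40.1 in sheep 98, 68.8 in sheep 131, 118 in sheep 179 and 25.6 in sheep 201. In treated livers it was 2.36 in sheep 48, which is 2 reads, 11.95 in sheep 63, 14.4 in sheep 185, 52.5 in sheep 233 and 33.6 in sheep 255. The livers of sheep 48, 63 and 185 lay below every control liver, and all 5 treated livers lay below the control median. The group means were 63.1 ± 40.6 (SD, n = 4) and 23.0 ± 20.0 (SD, n = 5).

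On the log2 scale DLK1 differed by -1.73 between treated and control livers, with an SE of 0.72 and a 95% interval from -3.30 to -0.15. The unadjusted limma p was 0.034 and the adjusted p 0.999. Without sheep 48 the log2 difference was -1.15 (unadjusted p = 0.068). The unadjusted p was 0.0767 without sheep 131, 0.109 without sheep 179 and 0.063 without sheep 63. The summed normalized read count of 10 fibroblast and stellate cell markers ran from 2811 to 4063 in control livers and from 2369 to 4728 in treated livers, with the treated median higher for 6 of 10 and none at 0 in every library. The summed count of 9 T and NK cell markers ran from 251 to 416 in control livers and from 345 to 679 in treated livers, with the treated median higher for 9 of 9. The summed count of 9 muscle fibre genes, low in liver, ran from 58.2 to 161 in control livers and from 27.1 to 49.5 in treated livers, with the treated median lower for 8 of 9. NEB, the nebulin gene, had separate ranges at 37.5 to 63.4 and 6.42 to 25.8, as did 0.682% of all liver genes with the treated group lower. Of 9 adipocyte markers 6 had a lower treated median, among them the fatty acid binding protein gene FABP4 with medians of 139 and 59.9. The 1 with a higher treated median was CFD, the most abundant of the 9, with medians of 942 and 1430. The sum of the 9 ran from 910.4 to 1593 in control and from 567.7 to 2279.7 in treated livers. The summed count of 6 cholangiocyte markers ran from 256 to 2432 in control livers and from 2228 to 8684 in treated livers. The treated median was lower for 4 of these 6 and higher for 2. SPP1, the most abundant of them by median, was among the higher, with medians of 1005 and 5496. The summed count of 7 Schwann cell and nerve markers ran from 20.3 to 172 in control livers and from 51.1 to 417 in treated livers. Their treated median was higher for 4 of 7 and lower for 1, and NEFL was at 0 in every liver library. Of these markers, S100B reached 160 in a control liver and NCAM1 364 in a treated liver. The part of these cell types in the liver values of DLK1, and of NNAT below, was not tested.

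NNAT encodes neuronatin, a small proteolipid of the endoplasmic reticulum membrane that is paternally expressed and best known from nerve, fat and endocrine cells. In control livers its normalized read count was 165 in sheep 98, 52.3 in sheep 131, 82.9 in sheep 179 and 50.1 in sheep 201. In treated livers it was 223 in sheep 48, 122 in sheep 63, 49.5 in sheep 185, 266 in sheep 233 and 252 in sheep 255. In 3 treated livers it lay above the highest control and in 1, that of sheep 185, below the lowest. The means were 87.6 ± 53.7 (SD, n = 4) and 183 ± 93.5 (SD, n = 5), and the log2 difference was 1 with an interval from -0.12 to 2.12. The unadjusted limma p was 0.0763 and the adjusted p 0.999, and the unadjusted p was 0.00422 without sheep 185 and 0.0233 without sheep 98. With any other sheep left out that p was higher than with all libraries, from 0.0812 without sheep 63 to 0.191 without sheep 201.

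MEST, a paternally expressed member of the hydrolase family linked to fat tissue growth, had normalized read counts of 80.2, 108, 155 and 93.5 in the control livers of sheep 98, 131, 179 and 201. In treated livers it was 130 in sheep 48, 183 in sheep 63, 69.0 in sheep 185, 78.1 in sheep 233 and 233 in sheep 255. The treated livers spread to both sides of the control range, with 2 above it and 2 below it. The log2 difference was 0.23 with an interval from -0.59 to 1.05. COPG2, which overlaps MEST in the gene table, had means of 127 ± 9.75 (SD, n = 4) and 138 ± 15.7 (SD, n = 5).

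SGCE encodes epsilon-sarcoglycan, a membrane protein of the dystrophin-associated complex, and PEG10 derives from a retrotransposon and is needed in the placenta. Both are paternally expressed, and they lie side by side in the genome. In control livers SGCE stood at 93.8 in sheep 98, 112 in sheep 131, 229 in sheep 179 and 109 in sheep 201. In treated livers it stood at 113 in sheep 185 and between 166 and 175 in the other 4 sheep. Each group thus held 1 liver apart from the rest, sheep 179 above the other controls and sheep 185 below the other treated sheep. The log2 difference of SGCE was 0.30 (interval -0.34 to 0.93). Without sheep 179 it was 0.58, at an unadjusted limma p of 0.0346 against 0.332 with all libraries. With any other sheep left out that p ran from 0.194 without sheep 185 to 0.643 without sheep 98.

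PEG10 had few reads in liver, with normalized read counts of 34.3, 5.81, 12.4 and 17.8 in the control sheep 98, 131, 179 and 201. In treated sheep it was 13.0 in sheep 48, 5.43 in sheep 63, 37.1 in sheep 185, 21.4 in sheep 233 and 8.67 in sheep 255. The 2 groups covered nearly the same range, with means of 17.6 ± 12.2 (SD, n = 4) and 17.1 ± 12.7 (SD, n = 5). The interval of its log2 difference, from -1.40 to 1.26, was wide.

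MEST and SGCE varied across liver libraries of both groups with the leading direction of all liver genes, at Pearson's r of -0.86 and -0.82 with its scores. PEG10 had r = 0.63 and NNAT r = -0.47. PEG3, DLK1, PLAGL1 and CDKN1C lay between -0.099 and 0.11. How closely other liver genes follow that direction was not computed, so these values are not a trait of imprinted genes. Scores on that direction were positive for sheep 98, 131, 201, 185 and 233 and negative for sheep 179, 48, 63 and 255, so each side held libraries of both treatment groups. MEST ran from 69.0 to 108 in the 5 livers with a positive score and from 130 to 233 in the 4 with a negative score. SGCE was at 113 or below in 4 of the 5 livers with a positive score, sheep 233 being the exception at 166, and at 167 or above in the 4 with a negative score. PEG10 was highest in sheep 185 and 98, which had the 2 highest scores. DLK1 did not follow this order, with its lowest value in sheep 48 and its highest in sheep 179, both on the negative side. The direction was computed from all liver genes, these genes included, and it is a description with no test.

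**Figure D2:**
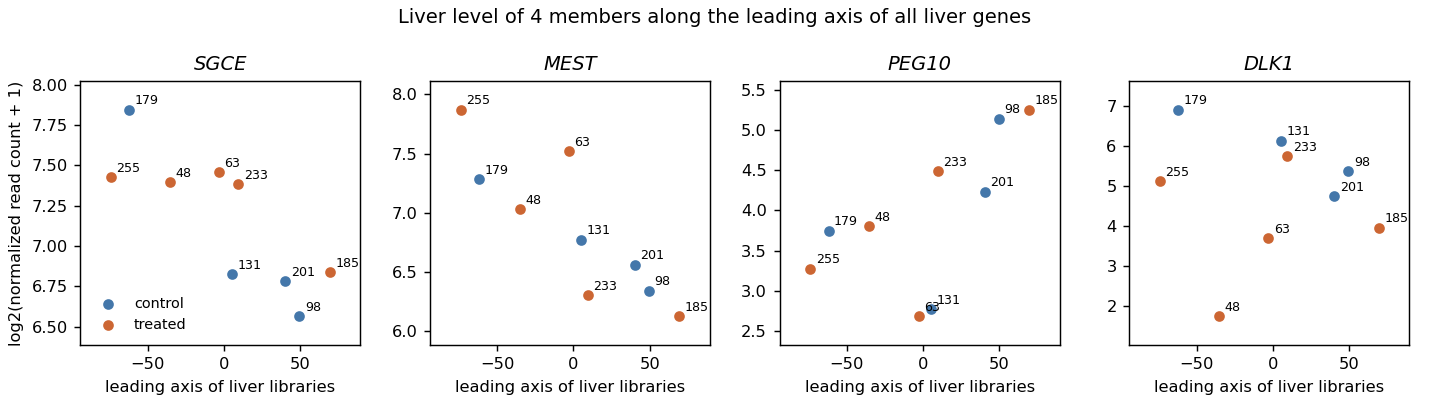
Level of SGCE, MEST, PEG10 and DLK1 as log2(normalized read count + 1) in the 9 liver libraries (vertical axis) against the score of each library on the leading direction of all liver genes (horizontal axis, arbitrary units); numbers name the sheep, control in blue and treated in orange. MEST lies lower to the right, SGCE of sheep 179 lies above and that of sheep 185 below the rest of their groups, and DLK1 shows no such order.

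In muscle the same question was put, and 7 of the 8 genes had a mean of at least 10 and were tested. NNAT had a treated mean of 389.8 against 259 in controls with no overlap between groups, PEG3 had a treated mean 1.37 times the control mean, and DLK1 had 1.97 times with wide spread. SGCE, CDKN1C and PLAGL1 had treated means within 1.08 times the control means. With limma, 0 of 7 genes passed the adjusted threshold, and 0.00771% of all 12966 muscle genes did. At an unadjusted p under 0.05, 2 of 7 were higher in treated muscle, NNAT and PEG3, against 7.37% of all genes higher and 7% lower by that measure, 14.4% in all. On the recovered reads edgeR called 0 of 7 and DESeq2 0 of the 6 to which it gave an adjusted p, MEST having none. NNAT was the 1 gene of the 7 with separate ranges, and 1.76% of all muscle genes had separate ranges with the treated group higher and 1.53% with it lower, 3.29% in all. The differences were above 0 for 5 of 7 genes, with a median of 0.12 on the log2 scale against -0.013 for all genes.

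NNAT in control muscle had a normalized read count of 289.8 in sheep 98, 281 in sheep 131, 142 in sheep 132, 262 in sheep 179 and 319.9 in sheep 201. In treated muscle it was 413 in sheep 48, 363 in sheep 63, 326 in sheep 185, 428 in sheep 233 and 419 in sheep 255. The lowest treated sheep, 185, lay just above the highest control, 201, and control sheep 132 lay below all others. The means were 259 ± 68.7 (SD, n = 5) and 389.8 ± 43.7 (SD, n = 5). The log2 difference was 0.63 with an SE of 0.20 and a 95% interval from 0.21 to 1.06. The limma p was 0.00645 unadjusted and 0.196 adjusted, and the log2 difference was 0.43 without sheep 132 (unadjusted p = 0.00633). DESeq2 gave the lowest adjusted p of the settings tried for this gene, 0.0878. In the same gene table NNAT lies within BLCAP, a gene whose mean normalized read count was 6036 ± 1063 in control and 6405 ± 1767 in treated muscle (SD, n = 5 each), with a log2 difference of 0.057 (limma adjusted p = 0.923). Reads from stretches that both share cannot be told apart here either.

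PEG3, which is expressed in the satellite cells that regenerate muscle, had normalized read counts of 197, 161, 271, 219 and 241 in the control muscle of sheep 98, 131, 132, 179 and 201. In treated muscle it was 363 in sheep 48, 203 in sheep 63, 337 in sheep 185, 284 in sheep 233 and 309.7 in sheep 255. Of the 5 treated sheep, 4 lay above the highest control, and sheep 63 lay within the control range. The means were 218 ± 41.6 (SD, n = 5) and 299.6 ± 61.5 (SD, n = 5). The log2 difference was 0.45 with an SE of 0.18 and an interval from 0.065 to 0.84. The limma p was 0.0253 unadjusted and 0.284 adjusted. The unadjusted p was 0.0529 without sheep 98, 0.0715 without sheep 131, 0.0679 without sheep 48 and 0.0588 without sheep 185.

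Of 8 satellite cell and myoblast markers, 7 had a higher median in treated muscle and none was at 0 in every muscle library. PAX7, the transcription factor that marks satellite cells, ran from 6 to 22.1 in control muscle and from 22.3 to 64.1 in treated muscle, and CDH15, a cadherin of the same cells, ran from 148 to 196 and from 227 to 299. Neither passed the threshold, with limma adjusted p of 0.151 and 0.165. The summed list, of which most was the intermediate filament gene DES, ran from 92259 to 126878 in control and from 63928 to 123114 in treated muscle. The summed count of 9 muscle fibre genes ran from 1820587 to 2127316 in control and from 946632 to 1847927 in treated muscle. Of 9 T and NK cell markers 7 had a higher median in treated muscle, the summed count running from 149 to 218 and from 190.5 to 327. LCK, a kinase of T cells, had separate ranges at 12.9 to 20.51 and 24.3 to 42.6. Such ranges, also seen for PAX7 and CDH15, were found for 1.76% of all muscle genes with the treated group higher. The summed count of 7 Schwann cell and nerve markers ran from 94.6 to 344 in control and from 153 to 393 in treated muscle. Their treated median was higher for 4 of 7 and lower for 2. The part of these cells in the PEG3 and NNAT values was not tested. Without the muscle of sheep 48 the log2 difference was 0.61 for NNAT and 0.38 for PEG3.

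DLK1 in control muscle was 43.7 in sheep 98, 41.1 in sheep 131, 63.8 in sheep 132, 247 in sheep 179 and 111 in sheep 201. In treated muscle it was 54.8 in sheep 48, 129 in sheep 63, 276 in sheep 185, 477 in sheep 233 and 59.2 in sheep 255. The muscles of treated sheep 185 and 233 lay above every control, and 2 others lay among the lower controls. The means were 101 ± 86.2 (SD, n = 5) and 199 ± 179 (SD, n = 5). The log2 difference was 0.82 with an interval from -0.49 to 2.12 (limma adjusted p = 0.564). The ratio of means of 1.97 depended on single sheep, being 3.07 without control sheep 179 and 1.28 without treated sheep 233. The summed count of 9 adipocyte markers in muscle ran from 1921 to 3448 in control and from 1561 to 3203 in treated sheep, with the treated median lower for 7 of 9. That of 10 fibroblast markers ran from 7467 to 10994 and from 6796 to 14315. The part of these cells in the DLK1 values was not tested.

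The remaining genes had overlapping ranges in muscle. CDKN1C ran from 273 to 502 in control and from 293 to 517 in treated muscle, with a log2 difference of 0.12 (interval -0.29 to 0.53). SGCE ran from 60.6 to 113 and from 64.1 to 133, with a log2 difference of 0.098 (interval -0.40 to 0.60). PLAGL1 ran from 50.6 to 89.4 and from 39.7 to 91.1, with a log2 difference of -0.015 (interval -0.52 to 0.49). Their intervals exclude a 2-fold difference in either direction, which is 1 on the log2 scale.

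MEST had few reads in muscle. Its normalized read count was between 8.13 and 13.7 in the 5 control sheep. In treated sheep it was 2.03 in sheep 48, 7.28 in sheep 63, 16 in sheep 185, 35.8 in sheep 233 and 5.83 in sheep 255. The treated sheep thus spread to both sides of a narrow control range. The treated mean of 13.4 ± 13.5 (SD, n = 5) was 7.78 when sheep 233 was left out, which turned the ratio to the control mean from above 1 to 0.727. The log2 difference was -0.19 with an interval from -1.39 to 1.02, and it was 0.34 with edgeR and with DESeq2. COPG2, which overlaps MEST in the gene table, had means of 203 ± 32.3 in control and 210 ± 37.6 in treated muscle (SD, n = 5 each). Reads from stretches that both genes share cannot be told apart. PEG10 had at most 13 reads in a muscle library and no read in sheep 48, and its means of 4.32 ± 1.46 and 5.97 ± 4.11 (SD, n = 5 each) were below the filter.

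**Figure D3:**
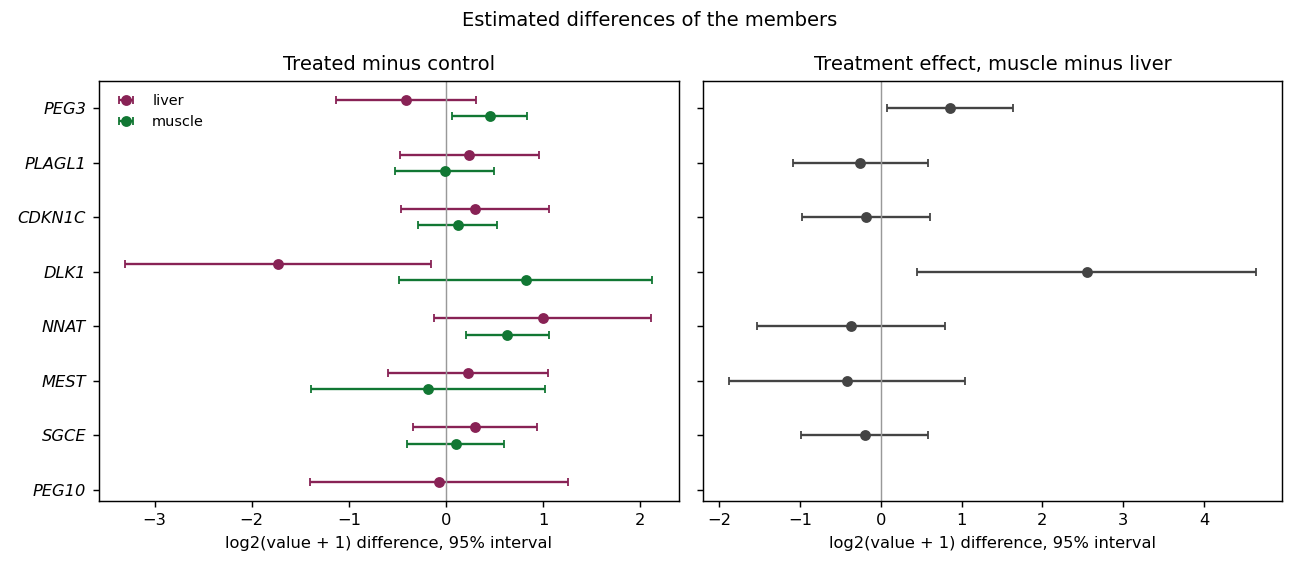
Left, treated minus control difference on the log2(value + 1) scale (horizontal axis) for each gene in liver and muscle; right, the muscle difference minus the liver difference. Points are limma estimates and lines their unadjusted 95% intervals; the intervals of DLK1 in liver, NNAT and PEG3 in muscle, and DLK1 and PEG3 on the right do not reach 0, and no gene passed after adjustment over all genes.

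The third comparison asked whether the treated minus control difference was itself different between the tissues. DLK1 and PEG3 had differences of opposite sign in liver and muscle, below 0 in liver and above 0 in muscle. MEST and PLAGL1 had the reverse order, at 0.23 and 0.24 in liver and -0.19 and -0.015 in muscle. How many of all genes differ in sign was not counted. The muscle minus liver contrast was 2.55 for DLK1 (SE 1.01, interval 0.45 to 4.64) and 0.86 for PEG3 (SE 0.38, interval 0.082 to 1.64). The limma p was 0.0196 for DLK1 and 0.0319 for PEG3 unadjusted, and 0.897 and 0.963 adjusted. This fit did not use the pairing of tissues by sheep, and fits with the sheep as a replicate block are given in the last section. Of 7 genes tested, 0 passed the adjusted threshold, against 0.00855% of all 11697 genes, and 2 were above 0 at an unadjusted p under 0.05, against 2.56% of all genes above 0 and 2.34% below 0 by that measure, 4.9% in all. On the recovered reads edgeR called 0 of 7. DESeq2 gave an adjusted p to 3 of 7, PEG3, NNAT and CDKN1C, and called 0 of them, and for DLK1 its contrast was 2.43 with an unadjusted p of 0.0246. The other 5 contrasts lay between -0.42 for MEST and -0.18 for CDKN1C, and the median of the 7 was -0.20 against -0.016 for all genes. For NNAT, with treated means above the control means in both tissues, the contrast was -0.36 with an interval from -1.53 to 0.80. Without sheep 131 the unadjusted p of the contrast was 0.0633 for DLK1 and 0.0781 for PEG3. For PEG3 it was also 0.0542 without sheep 98, 0.0916 without sheep 179, 0.118 without sheep 48 and 0.0784 without sheep 233.

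The contrast of DLK1 can be read sheep by sheep. Its muscle level minus its liver level on the log2 scale was 0.12 in control sheep 98, -0.73 in sheep 131, 1.06 in sheep 179 and 2.07 in sheep 201. In treated sheep it was 4.05 in sheep 48, 3.32 in sheep 63, 4.17 in sheep 185, 3.16 in sheep 233 and 0.80 in sheep 255. Of the treated sheep, 4 of 5 lay above every control sheep, and sheep 255 lay within the control range. The tissues were scaled separately, so the size of a gap between tissues has no meaning of its own and only its difference between groups is read. For PEG3 the same quantity was -0.43 in sheep 131 and -0.51 in sheep 179, near 0 in sheep 98, and 0.45 in sheep 201. In treated sheep it was 1.78 in sheep 48, 0.27 in sheep 63, 0.34 in sheep 185, 1.35 in sheep 233 and 0.29 in sheep 255. Sheep 48 and 233 lay above every control, and the other 3 treated sheep lay between control sheep 98 and 201.

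**Figure D4:**
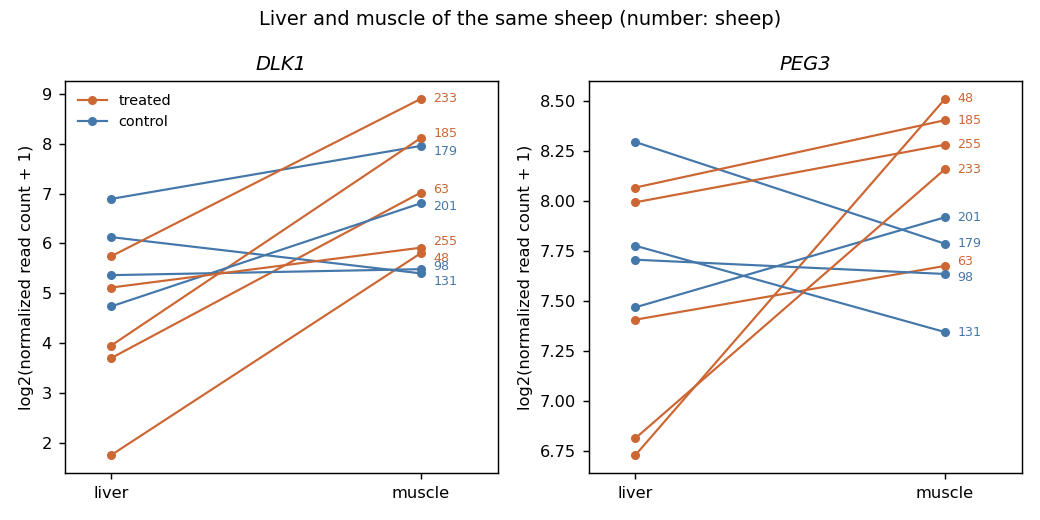
Liver and muscle levels of DLK1 and PEG3 in the 9 sheep with both tissues, as log2(normalized read count + 1), with a line joining the tissues of 1 sheep and its number at the right; control in blue, treated in orange. For DLK1 the lines of treated sheep 48, 63, 185 and 233 span 3.16 or more, while those of the controls differ by between -0.73 and 2.07.

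The last comparison asked whether the 2 tissues of a sheep agree, that is, whether a sheep above its group mean in liver was also above it in muscle. Over the 9 sheep, Pearson's r of these deviations was above 0 for 5 of 7 genes and below 0 for 2, with a median of 0.29 against 0.17 over all 11697 genes, of which 65.0% had an r above 0. By an exact two-sided permutation of sheep within their groups, adjusted over all genes, 0 of 7 genes passed, as did 0% of all genes. At an unadjusted p under 0.05 there were also 0 of 7, against 7.4% of all genes, 6.01% with r above 0 and 1.39% with r below 0, and the smallest p this test can give is 0.00035. Over 11697 genes that smallest p passes adjustment only if many genes reach it together. The count of 0 after adjustment therefore says little about agreement.

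NNAT had the highest r of the 7, with r = 0.62 (exact permutation p = 0.114, adjusted p = 0.728) and Spearman's rho of 0.37 (exact permutation p = 0.371, adjusted p = 0.894). Treated sheep 185 was the lowest treated sheep for NNAT in both tissues, and treated sheep 48, 233 and 255 were above their group mean in both. Without sheep 201 and 185, the 2 farthest from the median in liver, r was 0.68 (exact permutation p = 0.104). With 1 sheep left out r ran from 0.19 without sheep 185 to 0.88 without sheep 201, so that its size depended on both of these sheep. The deviations had the same sign in both tissues in 7 of 9 sheep. An r above that of NNAT was found for 10.9% of all genes.

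DLK1 had r = 0.51 (exact permutation p = 0.216, adjusted p = 0.802) and rho = 0.53 (exact permutation p = 0.187, adjusted p = 0.834). Without sheep 179, high in both tissues, and sheep 48, low in both, the 2 farthest from the median in liver, r was -0.027. With 1 sheep left out r was 0.30 without sheep 48 and 0.28 without sheep 233, also high in both. SGCE had r = 0.32 (exact permutation p = 0.417, adjusted p = 0.877) and a rho of opposite sign, -0.10 (exact permutation p = 0.824). CDKN1C had r = 0.29 (exact permutation p = 0.361, adjusted p = 0.857) and rho = 0.42 (exact permutation p = 0.261, adjusted p = 0.858). The deviations of CDKN1C had the same sign in both tissues in 5 of 9 sheep, and its r was 0.018 without sheep 201, 0.17 without sheep 255 and 0.65 without sheep 185. PLAGL1 and PEG3 had r of 0.040 and -0.016 (exact permutation p = 0.922 and 0.984, adjusted p = 0.987 and 0.997).

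MEST had the lowest value, r = -0.62 (exact permutation p = 0.192, adjusted p = 0.784) and rho = -0.82 (exact permutation p = 0.0524, adjusted p = 0.769). Treated sheep 233 and 185 had the 2 lowest treated liver levels and the 2 highest muscle levels, and sheep 255 had the highest liver level and a low muscle level. The deviations had the same sign in both tissues in 2 of 9 sheep, and with 1 sheep left out r ran from -0.83 to -0.48. Without sheep 63 and 255 r was -0.68 (exact permutation p = 0.139). An r above that of MEST was found for 96.8% of all genes. The muscle values of MEST rest on few reads.

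**Figure D5:**
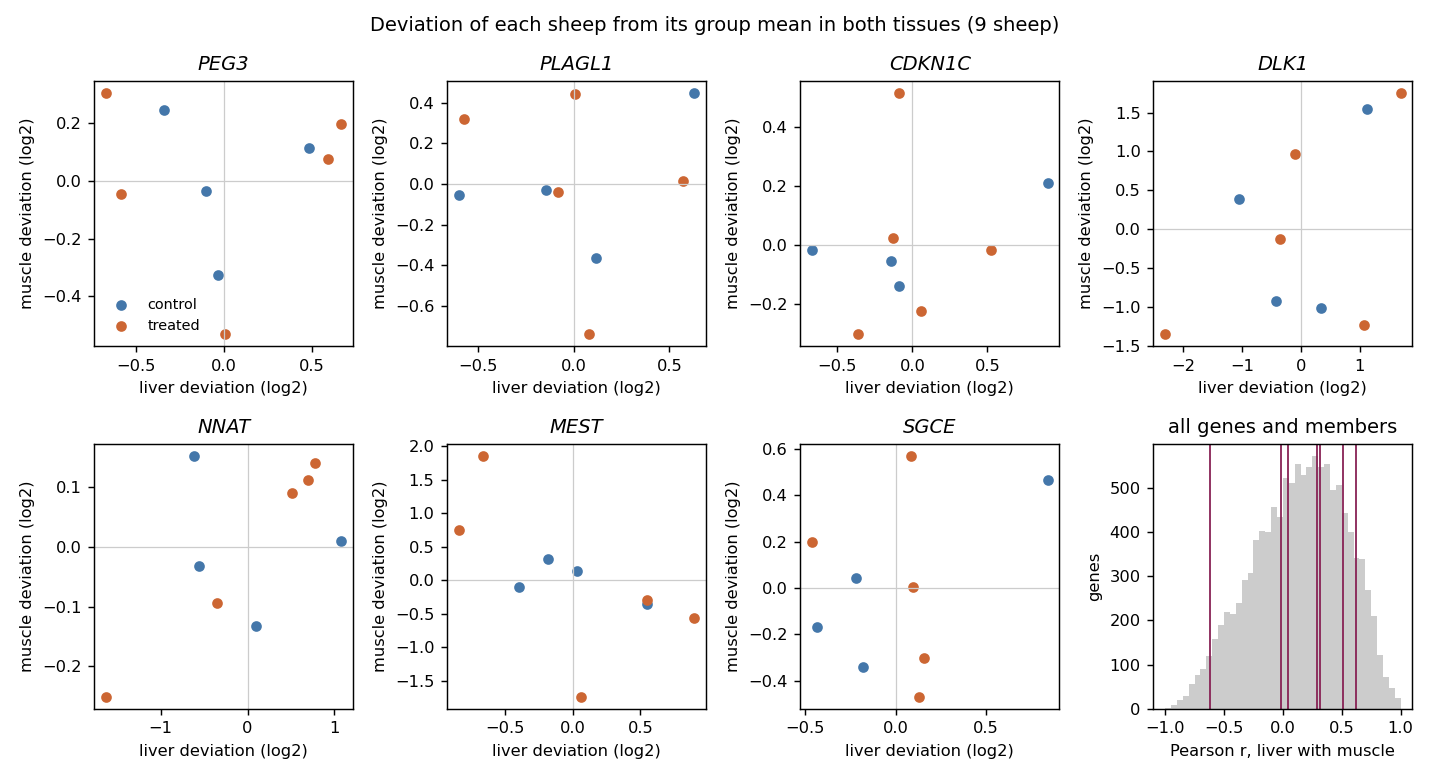
Deviation of each of the 9 sheep from its group mean on the log2 scale, in liver (horizontal axis) and muscle (vertical axis), for 7 imprinted genes, with controls in blue and treated sheep in orange. The last panel shows Pearson's r of liver with muscle for all 11697 genes as a grey histogram and for the 7 genes as lines, from -0.62 for MEST to 0.62 for NNAT; none passed the permutation test.

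PEG10 and SGCE lie head to head in 1 imprinted cluster, and their deviations were compared within each tissue. In liver r was -0.47 (exact permutation p = 0.233, adjusted p = 0.467) and rho was -0.73 (exact permutation p = 0.0382, adjusted p = 0.0764), the adjustment being over the 2 tissues. Without sheep 98 and 185, in which PEG10 was highest and SGCE low, r was 0.045. In muscle r was 0.22 (exact permutation p = 0.623) and rho was 0.38 (exact permutation p = 0.323). In muscle r was 0.40 without sheep 131 and 48. Over all pairs of the 8 genes in liver, r ran from -0.78 for PEG10 with MEST to 0.65 for MEST with SGCE, with a median of 0.047 over 28 pairs. In muscle it ran from -0.78 for NNAT with CDKN1C to 0.73 for DLK1 with SGCE, with a median of 0.062 over 21 pairs. These pairs share the same libraries and are given with no test.

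The gene most like each of the 7 over the deviations of 19 libraries, by Pearson's r among 11696 others, was AGTR1 for PEG3 (0.75), C1QTNF3 for MEST (0.83), FBLN5 for DLK1 (0.83), NARS for PLAGL1 (0.88), SRI for SGCE (0.87), LOC101110593 for NNAT (0.80) and RPL28 for CDKN1C (0.83). AGTR1 is an angiotensin receptor, FBLN5 the matrix protein fibulin 5, NARS an asparagine tRNA ligase, SRI the calcium-binding protein sorcin and RPL28 a ribosomal protein. Each is the highest of many correlations over shared libraries and is a description.

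Of 52 other imprinted genes listed, 38 had a row. With limma, 0 of 26 tested in liver, 0 of 24 in muscle and 0 of 24 for the contrast between tissues passed the adjusted threshold. At an unadjusted p under 0.05, 1 of 26, against 1.82% of all liver genes, was higher in treated liver, PON3, a lactonase made in liver, at 3018 ± 1449 in the 4 control livers and 5097 ± 1609 in the 5 treated livers (SD). The median log2 difference of the list was -0.074 in liver and -0.011 in muscle, with 10 of 26 and 12 of 24 above 0. L3MBTL1 was at 39.9 and 27.3 and ASB4 at 23.6 and 31.0 in control and treated livers, with unadjusted limma p of 0.143 and 0.212.

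In muscle 1 of 24 genes was higher and 1 lower at an unadjusted p under 0.05, against 7.37% and 7% of all muscle genes. TSSC4 was at 124 ± 18.2 in control and 189 ± 36.8 in treated sheep (SD, n = 5 each; log2 difference 0.59, limma adjusted p = 0.177). CASD1, a neighbour of SGCE, was at 500.2 ± 41.5 and 407 ± 47.1 (SD, n = 5 each; log2 difference -0.30, limma adjusted p = 0.283), and all 5 treated sheep lay below the lowest control, as for 1.53% of all muscle genes. It was also the 1 gene of 24 at an unadjusted p under 0.05 for the contrast between tissues, where 2.34% of all genes were below 0, at -0.65 (limma adjusted p = 0.963). NAP1L4 was at 2029 and 1769 (limma adjusted p = 0.426). IGF2, the fetal growth factor, was at 995 ± 664 (SD, n = 4) and 727 ± 386 (SD, n = 5) in control and treated livers and at 66.4 and 66.5 in muscle. Its receptor IGF2R was at 1574 and 1573 in liver and at 1373 and 1173 in muscle, and GRB10, an adaptor that dampens insulin signalling, was at 389 and 326 in liver and at 3644 and 2968 in muscle. For these 3 genes the unadjusted limma p was at least 0.0947 in both tissues. H19 is not analysed here.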

How the data were processed

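Libraries were prepared from total RNA of both tissues (TruSeq, per the labels' protocols). The submitters' processing notes name Trimmomatic, STAR and featureCounts 1.6.1, while build, annotation and strand setting are not given in the sources used here. Per gene, the signal the authors deposited is a normalized read count. All values came out as whole reads within 0.01 read, and size factors recomputed within each tissue by the median of ratios matched to a relative 1.77e-11. In each tissue, genes averaging at least 10 were tested on log2(value + 1) with limma 3.58.1 (R 4.3.3, mean-variance trend) and Benjamini-Hochberg adjustment over all genes at 0.05, each tissue on its own and the contrast between tissues in 1 fit of 19 libraries. Fold changes on this scale understate the change of low genes. Alternatives were edgeR 4.0.16 and DESeq2 1.42.0 on the recovered reads, other pseudocounts, filters, TMM, array weights, a block for sheep, and leaving out each library. The procedure was tested on simulated counts with large planted changes and 1 fixed spread. This does not show its power for changes and spreads of the size seen in these genes. Sheep numbers in the labels pair the tissues: the median same-sheep correlation of deviations from group means was 0.177 (0.103 to 0.349), against -0.0172 between sheep, and 7 of 9 livers correlated best with their own muscle. Agreement was tested by enumerating 2880 permutations within groups. Intervals are 95% and unadjusted. Named were the 10 imprinted genes, the most alike gene of each, and, of a list of 52 other imprinted genes, the 3 with the smallest p per tissue with IGF2, H19, IGF2R and GRB10; gene-table neighbours and markers were added with their values. The NCBI table was of assembly ARS-UI_Ramb_v3.0, where all 8 symbols matched, and gives no coordinates here because the build of the counts is unknown. Members and lists were chosen with earlier results of these data known.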

Additional observations from a re-analysis of the deposited data

Results flagged for a closer look

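Both results below concern SGCE in liver and were picked out because 1 library lay far from the others of its group, measured as the gap to the nearest library over the range of the group. Control sheep 179 had a normalized read count of 229 while the other controls lay between 93.8 and 112, a gap of 0.862 of the range where 0.829 is the critical value for 4 libraries. Treated sheep 185 had 113 while the other treated sheep lay between 166 and 175, a gap of 0.853 where 0.71 is the critical value for 5 libraries. Of 32 groups of libraries looked at, 2 were picked out, and chance alone picks out about 1 in 20. On the leading direction of all liver genes, sheep 185 had the highest score, 69.6, and sheep 179 the second lowest, -62.0.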

How the results depend on the processing

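The number of genes of the 8 passing the adjusted threshold, or for PEG10 with SGCE the number of tissues, was 0 under all 35 other settings. It was also 0 in all 38 fits with a library or sheep left out. For agreement between tissues the smallest p that the permutations allow made such a call unlikely in advance. DESeq2 gave no adjusted p to MEST in muscle or to DLK1, MEST, PLAGL1 and SGCE for the contrast, so those could not be called there. Counts at an unadjusted p under 0.05 were less stable. In liver the count of 1 became 0 with a mean of at least 50, where DLK1 is not tested, 2 with DESeq2 and with all 19 libraries in 1 fit, and 3 with array weights, and it ran from 0 to 2 with a library left out. In muscle the count of 2 became 0 with all 19 libraries in 1 fit, with or without the block, and ran from 1 to 2 with a library left out. For the contrast between tissues the count of 2 became 1 with a mean of at least 50, where DLK1 is not tested, and ran from 0 to 2 with a sheep left out. With the sheep as a replicate block, the contrast of DLK1 was 2.47 (limma adjusted p = 0.574) and that of PEG3 0.94 (adjusted p = 0.85). By duplicateCorrelation, at an estimated correlation of 0.121, they were 2.54 and 0.87, and the replicate block changed no call.

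Of single values under other settings, 235 kept their sign and 10 turned it, as did 259 and 16 with a library or sheep left out. MEST in muscle was 0.34 with edgeR and with DESeq2, PLAGL1 in muscle 0.012 with both, and the MEST contrast 0.0078 with edgeR and 0.00096 with DESeq2. Agreement was -0.10 for SGCE by Spearman's rho, and without the 2 farthest sheep 0.49 for PEG3, -0.027 for DLK1 and -0.0037 for PLAGL1. With a library left out, PEG10 in liver ran from -0.47 to 0.32. In muscle MEST ran from -0.65 to 0.25, PLAGL1 from -0.13 to 0.17, SGCE from -0.045 to 0.22 and CDKN1C from -0.010 to 0.27. The MEST contrast ran from -1.05 to 0.032, and r ran from -0.35 to 0.27 for PLAGL1, from -0.33 to 0.49 for SGCE and from -0.21 to 0.29 for PEG3. DLK1 stayed below 0 in liver, from -2.15 to -1.15, and NNAT above 0 in muscle, from 0.43 to 0.72. The cause of these shifts was not tested. Depth limits PEG10, MEST in muscle and DLK1 in treated livers, where a library held 2 to 49 reads of DLK1.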
